A study of Mus musculus with 4 samples.

Results

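The cytosolic and mitochondrial heat shock chaperones are described here across 4 sources of B16F10 cells, a mouse melanoma line. The genes were chosen by name, as 10 of the 24527 gene symbols counted: Hsp90ab1, Hsp90aa1, Hspa8, Hspa1a, Hspa1b, Hsph1, Dnajb1, Hspd1, Hspe1 and Hsf1. All 10 averaged above 1 CPM over the libraries, as did 12728 genes in total, where CPM is the read count of a gene scaled to the size of its library. The study compared the expression profile of melanoma cells grown with fibroblasts in 3 dimensions with that of the tumor and of flat cultures.

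Each group was 1 library, and the genotype was given as WT for all of them. The 2D monoculture was a monolayer of B16F10 cells. The 2D co-culture held B16F10 cells grown with NIH/3T3, a mouse fibroblast line, and the spheroid held the same pair of lines grown by hanging drop. The study's methods state that these cultures used Linterna B16F10 cells, which carry turboGFP in the cytoplasm, and that living GFP-positive cells were sorted from them. The tumor grew under the skin of 1-year-old female C57BL/6 mice after injection of B16F10 cells. The series design and the methods describe its cells as sorted, while the library was named as a snap frozen tumor, and the age and sex are those given for the mice of the study as a whole. RNA isolation was described with n = 3, and whether RNA was pooled into the single libraries is not given in the sources used here. With 1 library per group there was no replicate error, so no difference was tested. The intervals given are exact 95% intervals of the read counts, which cover counting error only and not the spread between cultures or animals.

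The libraries held 118896900 to 150028663 reads counted on genes. All 8 melanocyte markers, such as Mlana, Pmel and Tyr, exceeded 1 CPM in every library, with sums of 10584 to 18873 CPM. The tumor library also carried markers of host cells. Its 12 myeloid markers summed to 2125 CPM against 10.9 to 30.03 CPM in the 3 cultures, its 5 skeletal muscle markers to 4599 CPM against 3.28 to 12.4 CPM, its 3 adipocyte markers to 722 CPM against 0.639 to 1.19 CPM, and its 9 fibroblast markers to 2728 CPM. For the cultures, the fibroblast sum was 679 CPM with co-culture, 36.5 CPM as spheroid and 17.6 CPM without fibroblasts. The 10 endothelial markers summed to 398 CPM in the tumor and 272 to 333 CPM in the cultures, of which 1 or 2 genes exceeded 1 CPM in each culture and all 10 in the tumor. The 8 lymphoid markers summed to 9.28 CPM in the tumor and to at most 0.213 CPM in the cultures, where 2 to 5 of them were at 0. Cd14 and Fcgr1 of the myeloid list and Myh4 of the muscle list were at 0 in the 2D monoculture. The part of host or fibroblast RNA in the chaperone levels was not tested. In such bulk libraries, a change in the number of cells of a type and a change in RNA per cell cannot be told apart.

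Heat shock proteins are molecular chaperones: they bind unfolded or nascent proteins and help them to fold. HSP70 proteins take up clients with the help of HSP40 partners and release them with nucleotide exchange factors such as HSP110. HSP90 proteins act later on folded but unstable clients, among them many kinases and steroid receptors, while the mitochondrial HSP60 and HSP10 form a folding chamber in the matrix. The transcription factor HSF1 drives the inducible members under heat, oxidative or proteotoxic stress by binding heat shock elements, which are repeats of the unit nGAAn in alternating orientation. Melanoma cells, like other cancer cells, are known to depend on HSP90 clients such as mutant kinases.

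The 10 genes took up 1.64% of all reads in the 2D monoculture, 0.895% in the 2D co-culture, 0.746% in the spheroid and 1.18% in the tumor. In CPM scaled by trimmed mean of M-values (TMM), their sums were 16631, 9293, 8215 and 10151 CPM in that order. The monoculture thus had the highest total and the spheroid the lowest. Per kilobase of exon, the order of the genes within a library differed between sources. Hsp90ab1 led in the 2D monoculture with 2266 CPM per kb, and Hspa8 followed with 2244 CPM per kb. Hsp90ab1 led in the 2D co-culture as well with 1672 CPM per kb. The co-chaperonin Hspe1 led in the spheroid with 1468 CPM per kb, just above Hsp90ab1 with 1433 CPM per kb. This lead depends on the length used. Hspe1 has 774 bases of merged exons but 964 in its longest transcript, which would put it below Hsp90ab1, with 2520 bases by either measure. Hspa8 led in the tumor with 1456 CPM per kb. Hspa1a was the lowest member per kilobase in both flat cultures and the tumor, at 2.49 to 7.72 CPM per kb, and Hsph1 was the lowest in the spheroid, at 14.8 CPM per kb.

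**Figure D1:**
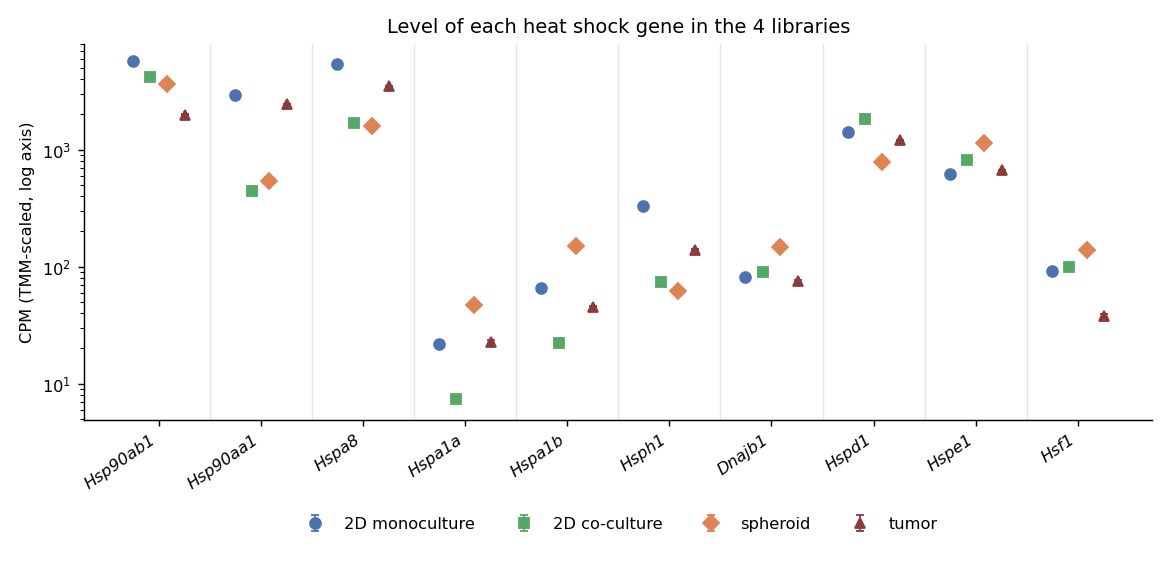
Levels of the 10 heat shock genes in TMM-scaled CPM on a log axis, 1 point per library (circles 2D monoculture, squares 2D co-culture, diamonds spheroid, triangles tumor); bars are exact 95% counting intervals, mostly smaller than the symbols. Hsp90aa1, Hspa8 and Hsph1 sit low in the 2D co-culture and the spheroid, and Hspa1a and Hspa1b are highest in the spheroid, an order that correction for GC content and length turns against the tumor.

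The cytosolic HSP90 proteins are encoded by Hsp90ab1, the constitutive beta form (GRCm38 chr17:45567775-45573271, minus strand), and Hsp90aa1, the stress-responsive alpha form (chr12:110690605-110702728, minus strand). Hsp90ab1 had 5711 CPM in the monoculture, 4214 in the co-culture, 3612 in the spheroid and 1995 in the tumor. It was the 5th most abundant gene by reads in the monoculture and the 20th in the tumor. Its log2 ratio to the monoculture was -0.44 in the co-culture, -0.66 in the spheroid and -1.52 in the tumor (95% interval -1.52 to -1.51). Hsp90aa1 had 2917 CPM in the monoculture, 441 in the co-culture, 538 in the spheroid and 2466 in the tumor. The monoculture and the tumor were high and the co-cultured cells of either geometry were low. The log2 ratio of the co-culture to the monoculture was -2.73 (-2.74 to -2.71), a 6.62-fold difference, and that of the spheroid to the monoculture was -2.44 (-2.45 to -2.43). Between spheroid and co-culture, Hsp90aa1 differed by a log2 ratio of only 0.29 (0.27 to 0.30). Its rank by reads went from the 12th gene in the tumor and the 15th in the monoculture to the 272nd in the spheroid and the 352nd in the co-culture.

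The HSP90 genes therefore had different profiles. A ratio of both genes within 1 library does not depend on how libraries are scaled. It does not cancel GC content, which is 51.0% for Hsp90ab1 and 43.7% for Hsp90aa1. Per kilobase, Hsp90ab1 exceeded Hsp90aa1 by 2.63 times in the 2D monoculture (2.62 to 2.64), 12.8 times in the 2D co-culture (12.7 to 12.9), 9.004 times in the spheroid (8.93 to 9.07) and 1.09 times in the tumor (1.08 to 1.09). In reads, the alpha form exceeded the beta form in the tumor, with a beta to alpha ratio of 0.809. From tumor to spheroid, the log2 ratio was 0.86 for Hsp90ab1 and -2.20 for Hsp90aa1. When the median of genes of like GC content and length was removed, these became 0.54 and -1.27, so the genes stood closer together. Of the Hsp90aa1 transcript's windows of 150 bases, the length of 1 read end, 36.2% also occurred in another annotated gene, 30.04% in Gm12346. None of those of Hsp90ab1 did. How reads that map to several places were counted is not given in the sources used here, so the Hsp90aa1 level is uncertain to that extent.

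The constitutive cytosolic HSP70 is encoded by Hspa8 (chr9:40800984-40810087, plus strand), which takes up nascent chains and uncoats clathrin vesicles. Hspa8 had 5372 CPM in the monoculture, 1701 in the co-culture, 1599 in the spheroid and 3486 in the tumor. Co-culture and spheroid were close to each other, with a log2 ratio of -0.09 (-0.10 to -0.08), and both lay below the other libraries. Against the monoculture, the log2 ratio was -1.66 in the co-culture, -1.75 in the spheroid and -0.62 in the tumor. Of its 150-base windows, 22.4% occurred in other annotated genes, mainly Gm26825 and Gm15459. The small nucleolar RNA genes Snord14c, Snord14d and Snord14e lie within its span and share no exon base with it.

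The inducible HSP70 is encoded by the neighbouring genes Hspa1a (chr17:34969190-34972156, minus strand) and Hspa1b (chr17:34956436-34959238, minus strand), each of 1 exon. Their promoters, 250 bases before to 50 bases after the annotated start (RefSeq, GRCm38.p6), differed at 4 of 300 bases. Each held 1 match to a pair of heat shock units in opposite orientation (GAANNTTC or TTCNNGAA, both strands searched), at position -104 from the start. The sequences are shown because these genes had like profiles across the libraries, 5′ to 3′ on the gene's strand with the matched letters in capitals, for Hspa1a at chr17:34972107-34972406 and Hspa1b at chr17:34959189-34959488.
Hspa1a: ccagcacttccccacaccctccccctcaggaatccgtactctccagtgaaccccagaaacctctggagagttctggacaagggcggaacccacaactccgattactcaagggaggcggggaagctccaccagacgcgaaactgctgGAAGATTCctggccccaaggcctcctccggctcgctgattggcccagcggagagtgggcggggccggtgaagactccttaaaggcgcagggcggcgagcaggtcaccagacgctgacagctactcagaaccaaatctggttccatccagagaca
Hspa1b: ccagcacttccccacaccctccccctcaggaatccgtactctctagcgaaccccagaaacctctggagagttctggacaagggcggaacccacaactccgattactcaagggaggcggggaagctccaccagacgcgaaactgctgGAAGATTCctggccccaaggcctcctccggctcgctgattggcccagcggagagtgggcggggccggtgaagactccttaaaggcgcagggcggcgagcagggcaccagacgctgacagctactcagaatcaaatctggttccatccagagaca

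Hspa1a had 21.8 CPM in the monoculture, 7.40 in the co-culture, 46.7 in the spheroid and 22.9 in the tumor. Hspa1b had 66.2 CPM, 22.1 CPM, 150 CPM and 45.5 CPM in the same order. Both were lowest in the flat co-culture and, in CPM, highest in the spheroid. When the median of genes of like GC content and length was removed, both were higher in the tumor than in the spheroid, with log2 ratios of spheroid to tumor of -0.75 and -0.048, and lay under 2-fold from monoculture to spheroid, at 0.42 and 0.50. From co-culture to spheroid, the log2 ratio was 2.66 (2.55 to 2.76) for Hspa1a and 2.77 (2.71 to 2.83) for Hspa1b, or 6.31-fold and 6.80-fold. Against the monoculture, the spheroid was higher by log2 ratios of 1.10 and 1.18, and the co-culture was lower, at -1.56 and -1.58. In the tumor, Hspa1a was close to the monoculture, with a log2 ratio of 0.07 (0.003 to 0.14), while Hspa1b had -0.54 (-0.59 to -0.50). The same correction made these 1.19, past 2-fold, and 0.57, so that the direction of Hspa1b turned.

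The counts of the Hspa1 genes cannot be fully separated. Of the 150-base windows of Hspa1a, 46.0% occurred in another annotated gene and 38.1% in Hspa1b, and of those of Hspa1b, 40.5% did. Hspa1a also overlaps Gm20481 on the opposite strand by 564 exon bases, and whether the counting used strand is not given in the sources used here. The sum of both genes was 88.0 CPM in the monoculture, 29.5 in the co-culture, 197 in the spheroid and 68.4 in the tumor. The Hspa1b to Hspa1a ratio per kilobase was 3.22, 3.16 and 3.41 in the 3 cultures and 2.10 in the tumor. Set against the constitutive form, the inducible genes made up 1.61% of the reads on Hspa8, Hspa1a and Hspa1b in the monoculture, 1.70% in the co-culture, 11.0% in the spheroid (10.8% to 11.1%) and 1.92% in the tumor. The spheroid had the highest share. Against the co-culture this came with a higher inducible level, as the Hspa8 levels were close. The share sets GC-rich genes (58.9% and 58.1%) against Hspa8 (45.9%), so scaling cancels in it but GC content does not. From tumor to spheroid, the corrected log2 ratios were -0.75 for Hspa1a, -0.048 for Hspa1b and -0.76 for Hspa8. The uncorrected ones were 1.03, 1.72 and -1.12. After correction, the ratio of Hspa1b, which held most of the inducible reads, stayed above that of Hspa8, while that of Hspa1a was level with it.

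**Figure D2:**
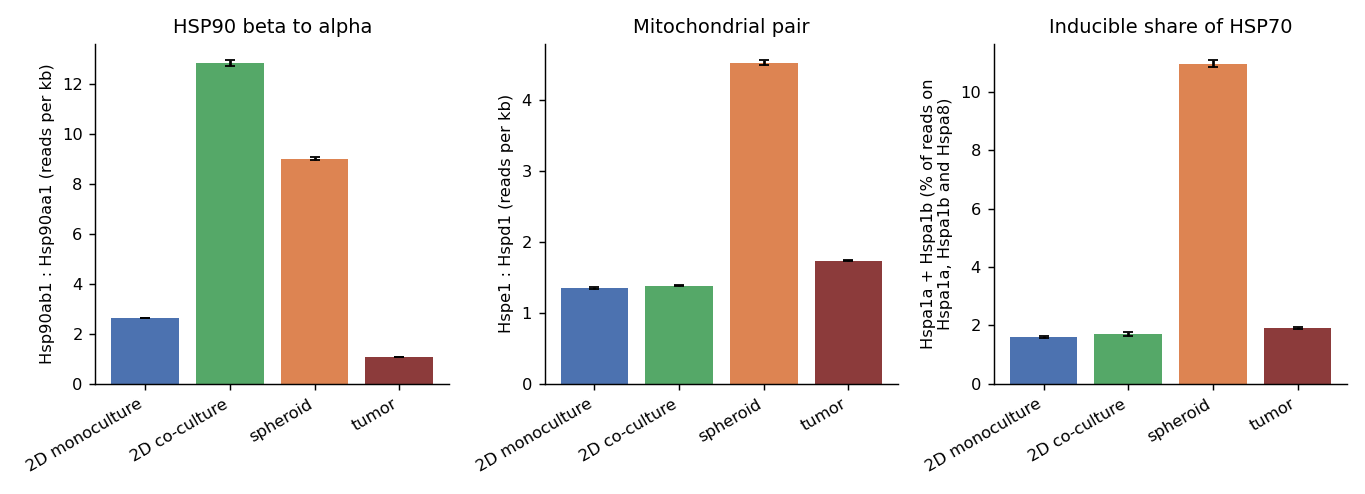
Ratios taken within each library, so that library scaling cancels while trends with GC content and length do not: Hsp90ab1 to Hsp90aa1 and Hspe1 to Hspd1 in reads per kb, and the percent of reads on Hspa8, Hspa1a and Hspa1b that fell on the inducible genes; bars start at 0 and error bars are exact 95% counting intervals. The beta to alpha ratio was highest in the 2D co-culture at 12.8, and the other measures were highest in the spheroid at 4.53 and 11.0%.

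Hsph1 (chr5:149614287-149636376, minus strand) encodes the HSP110 that exchanges nucleotide on HSP70. It had 332 CPM in the monoculture, 73.7 in the co-culture, 62.5 in the spheroid and 140 in the tumor. As for Hspa8, the co-culture and the spheroid were the lowest libraries and the monoculture the highest. The log2 ratio to the monoculture was -2.17 (-2.20 to -2.14) in the co-culture, -2.41 (-2.44 to -2.38) in the spheroid and -1.25 (-1.27 to -1.22) in the tumor. The Hspa8 to Hsph1 ratio per kilobase was 28.6 in the monoculture and 40.7 to 45.1 in the other libraries. The promoter of Hsph1 (chr5:149636266-149636565) held the heat shock letters at 3 positions, -54, 16 and 21, and the last of these overlap as a 3-unit run (TTCNNGAANNTTC). It is shown because, in uncorrected CPM, Hsph1 was lowest in the spheroid while the Hspa1 genes, which share the letters, were highest there.
Hsph1: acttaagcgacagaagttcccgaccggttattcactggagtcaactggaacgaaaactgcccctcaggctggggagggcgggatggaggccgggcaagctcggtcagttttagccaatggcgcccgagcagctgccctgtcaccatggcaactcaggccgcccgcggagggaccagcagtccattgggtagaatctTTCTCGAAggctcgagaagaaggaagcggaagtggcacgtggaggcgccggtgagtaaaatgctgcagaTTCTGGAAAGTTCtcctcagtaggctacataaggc

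Dnajb1 (chr8:83608193-83612653, plus strand) encodes the HSP40 partner that delivers clients to inducible HSP70 and stimulates its ATPase. It had 81.5 CPM in the monoculture, 89.6 in the co-culture, 146 in the spheroid and 75.0 in the tumor. The spheroid was the highest, with a log2 ratio to the monoculture of 0.84 (0.81 to 0.88). The ratio was 0.14 in the co-culture and -0.12 in the tumor, and the latter was as high as 0.23 under another scaling. After the correction for GC content and length, the tumor stood at 0.47 against the monoculture and the spheroid was within 0.08 of the tumor. None of the Dnajb1 promoter windows held the heat shock letters. Per kilobase, Hspa8 exceeded Dnajb1 by 88.2 times in the monoculture, 25.4 times in the co-culture, 14.6 times in the spheroid and 62.2 times in the tumor.

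The mitochondrial chaperonin HSP60 is encoded by Hspd1 (chr1:55077835-55088243, minus strand) and its lid HSP10 by Hspe1 (chr1:55088132-55091307, plus strand). The genes lie head to head and their spans overlap with 0 shared exon bases. The Hspe1 promoter window (chr1:55087898-55088197) held 3 overlapping matches that form 1 run of 4 units over 18 bases, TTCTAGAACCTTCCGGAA, starting at position -89. A window at one of the Hspd1 starts (chr1:55087883-55088182) shared 285 bases with it and held the same run on the other strand, read as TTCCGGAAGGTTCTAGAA, while the window at the other Hspd1 start held none. The whole Hspe1 window, and with it the run, lies within the annotated span of Hspd1. It is shown because 1 of these genes was lowest and the other highest in the spheroid.
Hspe1: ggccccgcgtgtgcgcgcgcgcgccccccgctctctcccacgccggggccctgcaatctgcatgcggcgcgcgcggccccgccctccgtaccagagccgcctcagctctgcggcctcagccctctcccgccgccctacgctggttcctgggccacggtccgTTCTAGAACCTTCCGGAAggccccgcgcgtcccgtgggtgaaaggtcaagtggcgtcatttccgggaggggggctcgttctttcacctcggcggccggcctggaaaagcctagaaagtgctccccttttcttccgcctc

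Hspd1 had 1423 CPM in the monoculture, 1833 in the co-culture, 784 in the spheroid and 1210 in the tumor. Hspe1 had 615 CPM, 811 CPM, 1136 CPM and 672 CPM in the same order. In the flat co-culture both were above the monoculture, by log2 ratios of 0.37 and 0.40. In the spheroid Hspd1 was the lowest of the libraries and Hspe1 the highest, with log2 ratios to the monoculture of -0.86 (-0.87 to -0.85) and 0.89 (0.87 to 0.90). The Hspe1 to Hspd1 ratio per kilobase was accordingly 1.35 (1.34 to 1.36) in the monoculture, 1.39 (1.38 to 1.40) in the co-culture, 4.53 (4.50 to 4.57) in the spheroid and 1.74 (1.73 to 1.75) in the tumor. After correction for GC content and length, the log2 ratios from monoculture to spheroid were -0.72 for Hspd1 and 0.57 for Hspe1. The genes thus stood closer together than in CPM, with the same signs. For the annotated lengths, 18.6% of the 150-base windows of Hspd1 and none of those of Hspe1 occurred in another gene.

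Hsf1 (chr15:76477422-76501913, plus strand) had 90.9 CPM in the monoculture, 100.025 in the co-culture, 140 in the spheroid and 38.2 in the tumor. Its mRNA was highest in the spheroid and lowest in the tumor, with a log2 ratio between them of 1.87 (1.83 to 1.92). The ratio of tumor to monoculture was -1.25 (-1.30 to -1.21), and it stayed below 0 at -0.90 under the scaling that brought it nearest. HSF1 is known to be controlled mainly after translation, by release from chaperones, trimer formation and phosphorylation, so its mRNA is not a measure of its activity.

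Across the promoters, heat shock letters were searched in 9 windows of the 6 genes named above with a RefSeq window (Hspa1a, Hspa1b, Hsph1, Dnajb1, Hspd1 and Hspe1). The 2-unit form occurred in 6 of the 9 windows and the 3-unit form (GAANNTTCNNGAA or TTCNNGAANNTTC) in 4. These windows are not separate: both Hsph1 windows hold the same matches, and the Hspe1 window shares its matches with that of Hspd1, so the 4 windows with the 3-unit form stand for 2 sites. Among all 32851 RefSeq promoter windows of the same length, 15.06% held the 2-unit form and 0.6027% the 3-unit form. Among the 12591 windows of genes averaging 1 CPM or more, these shares were 11.58% and 0.4606%. In CPM, the genes with a match included some with their highest level in the spheroid (Hspa1a, Hspa1b and Hspe1) and some with their lowest level there (Hsph1 and Hspd1). After correction for GC content and length, Hspa1a and Hspa1b were below the tumor in the spheroid, at log2 ratios of -0.75 and -0.048. Hsph1 was then slightly higher in the spheroid than in the co-culture, at 0.052. A match describes letters only and does not show binding.

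Counted over the 10 genes, the comparisons with the monoculture differed. A gene was counted as past 2-fold when its log2 ratio of CPM + 1 was at least 1 or at most -1. From 2D monoculture to 2D co-culture, 0 of 10 genes were past 2-fold higher, beside 3.79% of all genes, and 5 were past 2-fold lower (Hsp90aa1, Hspa8, Hspa1a, Hspa1b and Hsph1), beside 9.51% of all genes. From 2D monoculture to spheroid, 2 were higher (Hspa1a and Hspa1b), beside 11.2%, and 3 were lower (Hsp90aa1, Hspa8 and Hsph1), beside 17.9%. From 2D monoculture to tumor, 0 were higher, beside 14.8%, and 3 were lower (Hsp90ab1, Hsph1 and Hsf1), beside 18.2%. Their median ratio on the log2 scale was -0.94 in the co-culture, -0.02 in the spheroid and -0.39 in the tumor, while that of all genes was 0.01, 0.05 and -0.14. These comparisons share the monoculture library, so they are not independent of each other. The comparison with the tumor depended on scaling: the median of all genes went from -0.14 to as much as 0.19, only Hsp90ab1 remained past 2-fold lower under 3 of the scalings, and the ratios of Hsp90aa1 and Hspd1, -0.24 and -0.23, turned positive at up to 0.11 and 0.12.

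Between the other sources, the spheroid had 2 of the 10 genes past 2-fold higher than the 2D co-culture (Hspa1a and Hspa1b), beside 9.54% of all genes, and 1 lower (Hspd1), beside 8.46%. Against the tumor, the spheroid had 2 genes past 2-fold higher (Hspa1b and Hsf1), beside 26.8%, and 3 lower (Hsp90aa1, Hspa8 and Hsph1), beside 27.6%. The co-culture had 2 higher than the tumor (Hsp90ab1 and Hsf1), beside 18.8%, and 4 lower (Hsp90aa1, Hspa8, Hspa1a and Hspa1b), beside 20.9%. Hspa1a from tumor to spheroid, at a log2 ratio of 1.03 in CPM alone, fell just inside 2-fold once 1 CPM was added. From tumor to spheroid, the shares of the 10 genes were near those of all genes in both directions.

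**Figure D3:**
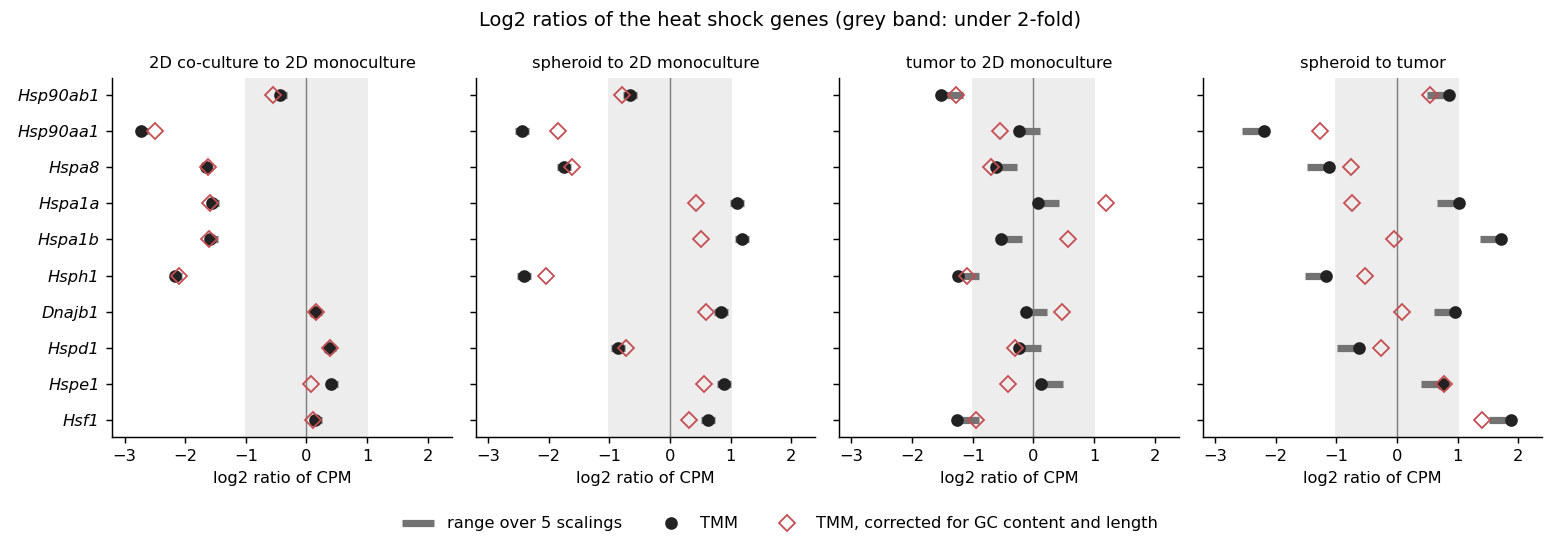
Log2 ratios of CPM for the 10 heat shock genes in 4 comparisons; filled circles are TMM-scaled values, grey bars span 5 ways of scaling the libraries, open diamonds are values after the median of genes of like GC content and length was removed, and the shaded band marks differences under 2-fold. Against the monoculture, Hsp90aa1, Hspa8 and Hsph1 lie beyond the band on the low side in the co-culture and the spheroid whichever value is read. From tumor to spheroid, the corrected values of Hspa8 (-0.76) and Hsph1 (-0.53) lie inside the band.

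How far the genes varied can be read from their range over the 4 libraries on the log2(CPM + 1) scale. The range was 2.72 for Hsp90aa1 and 2.71 for Hspa1b, wider than that of 87.8% and 87.6% of all genes. Hspe1 and Dnajb1 had the narrowest ranges, 0.89 and 0.95, with 24.5% and 28.0% of all genes below them. The median over all genes was 1.39. By the distance between centred profiles on this scale, the most alike pairs were Dnajb1 and Hspe1 at 0.235, Hspa8 and Hsph1 at 0.518, and Hspa1a and Hspa1b at 0.542. The least alike pair was Hsp90aa1 and Hsf1 at 3.52, and the HSP90 pair stood at 2.84. These are descriptions over 4 libraries.

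The levels of all genes followed the GC content of their transcripts between these libraries, and the heat shock genes range from 43.7% GC for Hsp90aa1 to 58.9% for Hspa1a. Across 12466 genes, which share the same libraries, Spearman's correlation of GC content with the log2 ratio was 0.464 from monoculture to spheroid, 0.200 from monoculture to co-culture and 0.525 from tumor to spheroid. Over the 10 heat shock genes it was 0.685, 0.103 and 0.842. From monoculture to spheroid, the median of the GC-poorest of 10 classes of genes was -0.43 and that of the GC-richest 0.68. When the median of genes of like GC content and length was removed, the ratios from monoculture to spheroid became 0.42 for Hspa1a and 0.50 for Hspa1b, both under 2-fold, 0.57 for Hspe1, -1.85 for Hsp90aa1, -1.61 for Hspa8 and -2.04 for Hsph1. From co-culture to spheroid, they were 2.01 for Hspa1a and 2.12 for Hspa1b. From tumor to spheroid, the correction turned both Hspa1 genes below 0, to -0.75 for Hspa1a and -0.048 for Hspa1b. The origin of the relation with GC content was not tested.

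**Figure D4:**
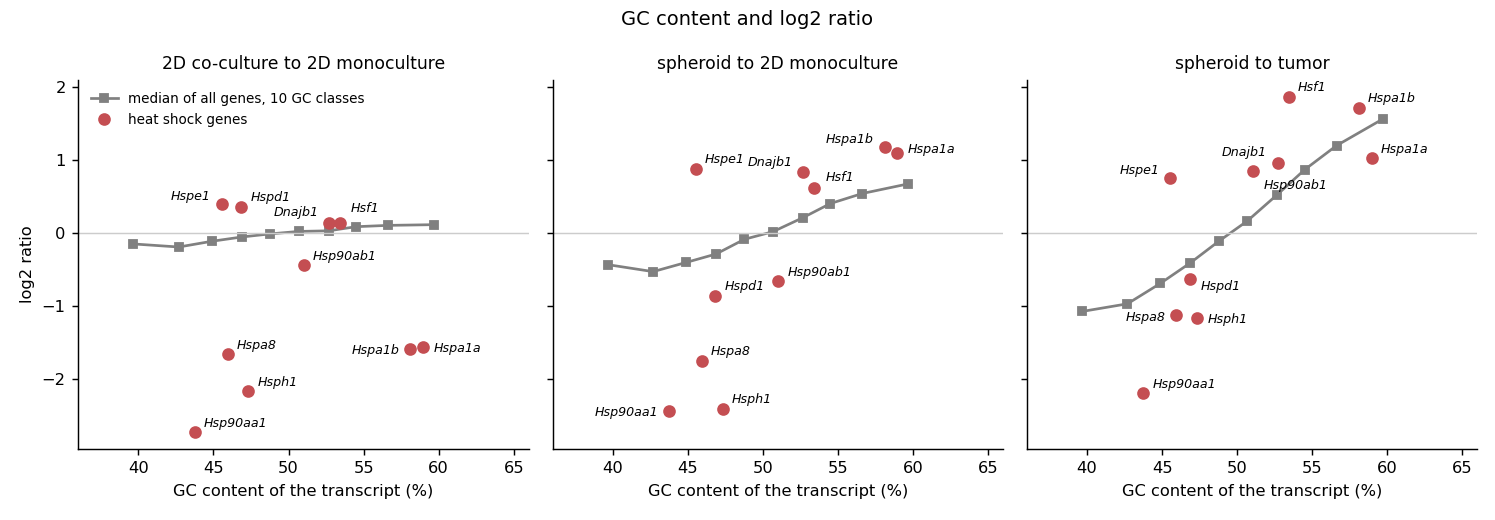
Log2 ratio of CPM (y axis) against GC content of the transcript in percent (x axis) in 3 comparisons; grey squares are medians of all genes in 10 classes of GC content and red points are the 10 heat shock genes. From monoculture to spheroid the class medians rise from -0.43 to 0.68, and from monoculture to co-culture they stay between -0.19 and 0.12, with Hspa1a and Hspa1b far below the line there.

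The wider chaperone network was read from lists of 85 other genes chosen by textbook role, of which 78 had a mean of at least 1 CPM. Genes named as the highest or lowest of a list are so among those averaging 10 CPM or more. From monoculture to spheroid, 7 of the 78 were past 2-fold higher, beside 11.2% of all genes, and 18 lower, beside 17.9%, with a median log2 ratio of -0.34. In the co-culture 1 was higher, beside 3.79%, and 7 lower, beside 9.51%, and in the tumor 3 were higher, beside 14.8%, and 14 lower, beside 18.2%. The lower counts in the co-culture and the tumor were near the shares of all genes. The same shares stand behind each list that follows, most of which are too short for their counts to be read against them. None of these lists was corrected for GC content and length. Of the 8 other HSP70 and HSP110 genes, 4 were past 2-fold lower in the spheroid and none higher. Hspa4, another HSP110, was the lowest of them, with 687 CPM in the monoculture, 355 in the co-culture, 162 in the spheroid and 396 in the tumor. Hspa2, best known from the testis, was the highest in the spheroid, with 19.1 CPM, 11.51 CPM, 35.1 CPM and 6.73 CPM in that order. Hspa13 was the highest of the list in the tumor among genes averaging 10 CPM or more, with 106 CPM against 73.1 CPM in the monoculture.

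Of the 16 other HSP40 genes, 2 were past 2-fold higher in the spheroid and 4 lower, beside 11.2% and 17.9% of all genes. Dnajc13, an endosomal protein, went from 94.5 CPM in the monoculture to 20.0 CPM in the co-culture and 11.6 CPM in the spheroid, and had 93.3 CPM in the tumor. Dnajb5 was the highest in the spheroid, with 31.9 CPM against 13.2 CPM in the monoculture. In the tumor, Dnajb2 was the lowest at 37.3 CPM against 114 CPM, and Dnajc7, a co-chaperone with TPR repeats, the highest of those averaging 10 CPM or more, at 191 CPM against 120 CPM. Of the 6 small heat shock proteins with enough reads, 3 were past 2-fold lower in the co-culture and none higher. Cryab, the alpha B crystallin, had 1131 CPM in the monoculture, 386 in the co-culture, 744 in the spheroid and 417 in the tumor. Hspb7, a small heat shock protein of muscle, had 69.3 CPM, 7.40 CPM, 11.7 CPM and 111 CPM, and Hspb2 had 18.1 CPM, 31.4 CPM, 59.7 CPM and 13.9 CPM. Hspb1, the small HSP27, was nearly absent from the cultures at 0.105 to 0.352 CPM and had 68.3 CPM in the tumor, the library with 4599 CPM of skeletal muscle and 2125 CPM of myeloid markers, whose part in it was not tested.

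The 21 co-chaperones of HSP90 and HSP70 differed little between cultures: none was past 2-fold in the spheroid or in the co-culture in either direction. In the tumor, 6 of the 21 were lower, beside 18.2% of all genes, and none higher, beside 14.8%. Bag6, which guards tail-anchored proteins, was the lowest there, with 126 CPM against 506 CPM in the monoculture, 547 CPM in the co-culture and 726 CPM in the spheroid. Ptges3, the HSP90 partner p23, had 127 CPM in the monoculture, 207 in the co-culture, 206 in the spheroid and 116 in the tumor. Sugt1 was the lowest of them in the spheroid and the highest in the tumor, with 39.9 CPM and 94.1 CPM against 71.0 CPM in the monoculture. In the list of the cytosolic chaperonin TRiC and prefoldin, which hands it clients, 7 of 14 genes were past 2-fold lower in the spheroid, beside 17.9% of all genes, and 1 higher, beside 11.2%, and none was past 2-fold in the tumor. The complexes, set apart after their values were seen, went opposite ways in the spheroid and, by less, in the co-culture. In the spheroid, all 8 TRiC genes were below the monoculture, 7 of them past 2-fold, with a median log2 ratio of -1.54. All 6 prefoldin genes were above it, 1 of them past 2-fold, with a median of 0.77. In the co-culture the signs were the same, with medians of -0.37 for TRiC and 0.55 for prefoldin and 1 gene of each past 2-fold. The TRiC gene nearest to the monoculture there was at -0.0003. These values are not corrected for GC content and length, and the part of such trends in the split was not tested. Cct3, a TRiC subunit, had 816 CPM in the monoculture, 406 in the co-culture, 179 in the spheroid and 630 in the tumor. Pfdn4, a prefoldin subunit, had 28.0 CPM, 62.9 CPM, 61.7 CPM and 37.8 CPM. In the tumor the highest of this list was Pfdn1, at 76.5 CPM against 50.5 CPM, and the lowest was Cct7, at 858 CPM against 1130 CPM.

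**Figure D5:**
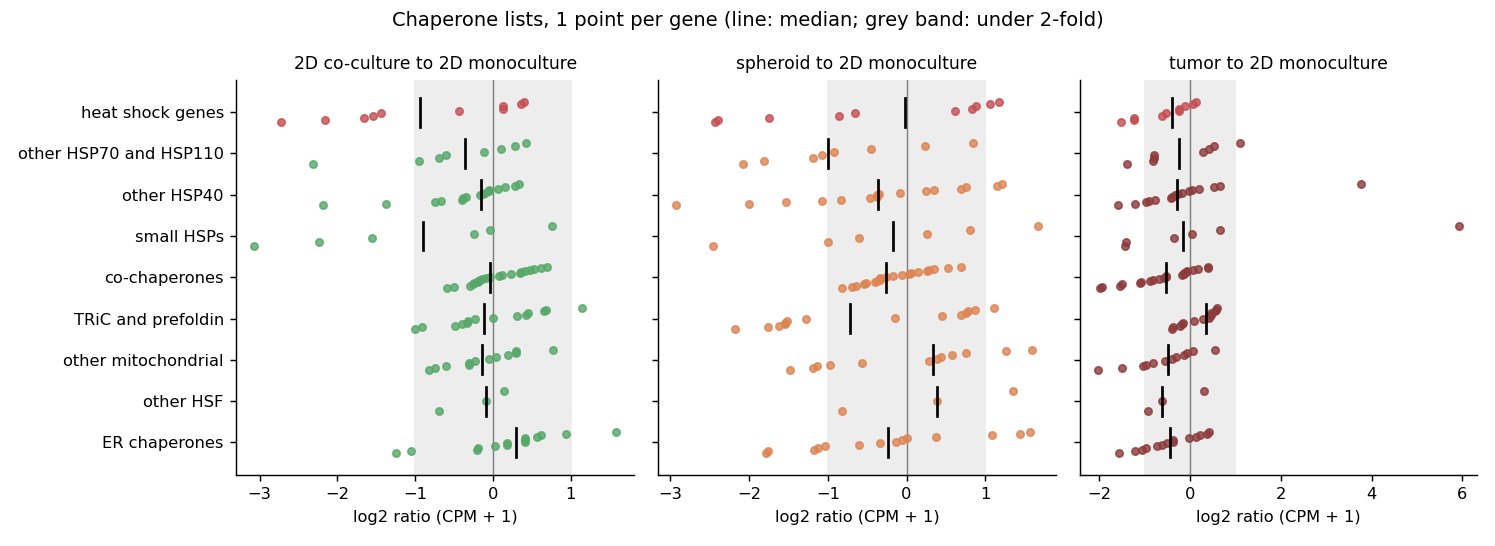
Log2 ratios of CPM + 1 to the 2D monoculture for the heat shock genes and 8 lists of other chaperone genes, 1 point per gene, with the median of each list as a black line and differences under 2-fold shaded; the x axes differ between panels. In the spheroid, the row of TRiC and prefoldin splits into 8 TRiC genes below 0 and 6 prefoldin genes above it, around a pooled median of -0.71, and in the tumor all lie within 2-fold. The signs split in the same way in the co-culture, where 1 TRiC and 1 prefoldin gene lie past 2-fold. No value shown is corrected for GC content and length.

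Of 12 other mitochondrial chaperones and proteases, 2 were past 2-fold higher and 3 lower in the spheroid, beside 11.2% and 17.9% of all genes, and 3 were lower in the tumor, beside 18.2%. Hscb, the HSP40 of iron-sulfur cluster assembly, was the highest in the spheroid at 62.5 CPM against 20.1 CPM in the monoculture. Clpx, the unfoldase of the matrix protease ClpP, was the lowest there at 14.5 CPM against 42.5 CPM. Lonp1, the Lon protease, had 753 CPM in the monoculture, 606 in the co-culture, 981 in the spheroid and 183 in the tumor. Yme1l1, a protease of the inner membrane, had 191 CPM in the tumor against 130 CPM in the monoculture. Among the relatives of Hsf1, Hsf4 was the highest in the spheroid, with 34.0 CPM in the monoculture, 31.9 in the co-culture, 88.1 in the spheroid and 17.5 in the tumor. Hsf2 had 35.6 CPM, 21.7 CPM, 19.8 CPM and 22.9 CPM, and Hsbp1, which binds HSF1 trimers, had 98.98 CPM, 109 CPM, 129 CPM and 124 CPM.

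Of 12 other genes known as HSF1 targets, 0 were past 2-fold higher in the spheroid and 2 lower, beside 11.2% and 17.9% of all genes, with a median log2 ratio of -0.26, in the co-culture 0 were higher and 1 lower, and in the tumor 1 was higher and 1 lower. At 2-fold in CPM, none of this list was higher in the spheroid as Hspa1a and Hspa1b were. After the correction for GC content and length, both Hspa1 genes were under 2-fold as well, at 0.42 and 0.50. The summed level of the list was 6137 CPM in the monoculture, 6621 in the co-culture, 8474 in the spheroid and 4250 in the tumor. This sum was highest in the spheroid but is weighted to the abundant genes Ubb and Serpinh1, while the list median there was below 0. Ubb had 2119 CPM in the monoculture, 2074 in the co-culture, 3464 in the spheroid and 1129 in the tumor. The highest ratio of spheroid to monoculture in the list was that of Serpinh1, the collagen chaperone HSP47. Serpinh1 had 1604 CPM in the monoculture, 2047 in the co-culture, 2879 in the spheroid and 1045 in the tumor. The lowest ratio was that of Hspa4l, with 30.5 CPM, 5.34 CPM, 8.02 CPM and 17.1 CPM. Bag3, which links HSP70 to autophagy, had 126 CPM, 110 CPM, 161 CPM and 32.0 CPM, and was the lowest of the list in the tumor.

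The chaperones of the endoplasmic reticulum, which answer to the unfolded protein response, were read beside them. Of 14 such genes, 3 were past 2-fold higher and 5 lower in the spheroid, beside 11.2% and 17.9% of all genes, 1 higher and 2 lower in the co-culture, and 0 higher and 3 lower in the tumor. Hsp90b1, the HSP90 of this compartment, had 1995 CPM in the monoculture, 845 in the co-culture, 579 in the spheroid and 2189 in the tumor, so that it was low in the libraries in which Hsp90aa1 was low. Manf, a secreted stress-induced factor, went the other way, with 291 CPM, 875 CPM, 868.3 CPM and 375 CPM. Hyou1, the HSP110 of this compartment, had 559 CPM, 830 CPM, 723 CPM and 189 CPM. Dnajc3, an HSP40 that restrains the kinase PERK, had 181 CPM, 86.9 CPM, 52.7 CPM and 242 CPM.

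Immediate early genes, such as Fos and Jun, rise within minutes of handling or stimulation and were read beside the inducible chaperones. Of 8 such genes, 7 were past 2-fold higher in the spheroid than in the monoculture, beside 11.2% of all genes, and 0 lower, with a median log2 ratio of 1.86. In the co-culture 4 were higher, beside 3.79%, and 1 lower, and in the tumor 0 were higher and 2 lower. Their summed level was 551 CPM in the monoculture, 700 in the co-culture, 1541 in the spheroid and 277 in the tumor. In uncorrected CPM, the spheroid was thus highest for them as for Hspa1a and Hspa1b. After correction for GC content and length, which was not made for the immediate early genes, Hspa1a and Hspa1b were lower in the spheroid than in the tumor. Their log2 ratios were then -0.75 and -0.048. What part handling has in the levels of Hspa1a and Hspa1b was not tested.

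Genes with profiles most like those of 3 members were sought among 9578 genes averaging 10 CPM or more, by the distance of centred log2(CPM + 1) values over the 4 libraries. Nearest to Hspa8 were Kat6b, a histone acetyltransferase, at 0.126, D5Ertd579e at 0.138 and Usf3 at 0.157. Nearest to Hspd1 were Enoph1, an enzyme of methionine salvage, at 0.0773, Sipa1l2 at 0.0866 and Fzd6, a Wnt receptor, at 0.108. Near to Hspa1b were Slc46a3 at 0.236 and Ypel3 at 0.428. With 4 libraries many genes have like profiles, and with Pearson's correlation in place of the distance, 0 of the 3 genes were shared for each member.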

How the data were processed

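RNA of 4 libraries was sequenced after poly(A) enrichment as 2x150 base paired ends. The table the authors deposited holds raw counts of reads per gene symbol; per the submitters' processing notes, Trimmomatic, STAR, featureCounts and mm10 were used, with no versions given. Handling of multi-mapping reads and of strand is not given in the sources used here, which affects genes with near copies. No column was left out. Of 24527 symbols, 4633 had no read.

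Counts were scaled to CPM with TMM factors (edgeR 4.0.16, R 4.3.3), which were 0.984, 0.963, 0.908 and 1.16 for the 2D monoculture, 2D co-culture, spheroid and tumor. Ratio intervals came from the exact binomial share (scipy 1.17.1), single levels from Clopper-Pearson intervals, and a count of 0 allows up to 3 counts, or 0.0185 to 0.0262 CPM. Calls across genes used CPM + 1 and genes averaging 1 CPM or more. Lengths (merged exons of the basic transcript set), GC content (longest transcript) and positions came from GENCODE M21 on GRCm38. Of the tested genes, 97.94% had both length and GC content. Promoters came from RefSeq, GRCm38.p6. The scripts were tested on simulated data. The study ran NOISeq and GFOLD, which were not rerun. No test was made, since each group has 1 library.

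The genes and lists were chosen with earlier results of these data known. Named beyond the 10 genes are the highest and lowest gene of each list (mean of at least 10 CPM) in the spheroid and in the tumor against the monoculture, the 3 nearest profiles of Hspa8, Hspd1 and Hspa1b (1 of which is not reported here), and genes that overlap or copy a member. Fos, Jun and marker genes are named as examples of their lists. Alternatives were DESeq2 1.42.0 size factors, total counts, upper quartile factors, TMM factors from genes of the monoculture (at least 10 CPM), a pseudocount of 0.1 CPM, other filters and folds, summed Hspa1 genes, and removal of the median of 10 by 10 classes of GC content and length.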

Additional observations from a re-analysis of the deposited data

How the results depend on the processing

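Of 300 alternative log2 ratios of single genes, 285 stayed within 1.5-fold of the reported value and 13 moved further, all under the GC content and length correction. Another 2, past 2-fold in CPM alone, reversed: from tumor to spheroid, the correction gave -0.75 for Hspa1a and -0.048 for Hspa1b. The other alternatives were rescalings, which shift every gene of a comparison alike and did so by less than 1.5-fold. Only the correction could therefore move a ratio further, so the 285 are no measure of stability. Of the 13, 11 kept their sign, while Hspa1b and Dnajb1 from monoculture to tumor turned to 0.57 and 0.47. In all, 8 of 60 ratios changed sign with the correction, the others being Hspe1 from monoculture to tumor (-0.43), Hspa8 (0.010) and Hsph1 (0.052) from co-culture to spheroid, and Dnajb1 from tumor to co-culture (-0.26). The same correction gave 0 genes past 2-fold higher from monoculture to spheroid in place of 2, 1 higher from monoculture to tumor in place of 0, 1 higher and 1 lower from tumor to spheroid in place of 2 and 3, with a median of -0.17 in place of 0.81, and 1 higher from tumor to co-culture in place of 2. Total counts gave 1 gene higher from monoculture to spheroid. Total counts, upper quartile factors and TMM factors from genes of the monoculture each gave 1 gene lower from monoculture to tumor in place of 3 and 1 higher from tumor to co-culture. They moved the median of all genes from monoculture to tumor from -0.14 to between 0.08 and 0.19, and 5 of 60 ratios of single genes changed sign with scaling, all of them involving the tumor. With total counts, 15 network genes in place of 9 were lower in the co-culture than in the tumor. With the Hspa1 genes summed, 1 gene was higher in the spheroid than in the monoculture, with a median of -0.66 in place of -0.02, and 1 higher than in the co-culture. At 1.5-fold, 5 genes were higher and 5 lower from monoculture to spheroid, and 6 higher from tumor to spheroid. At 4-fold, 0 were higher from monoculture to spheroid, 2 lower from monoculture to co-culture, 0 lower from monoculture to tumor, 0 lower from co-culture to spheroid, 0 higher and 1 lower from tumor to spheroid, and 0 higher and 1 lower from tumor to co-culture. The causes of these shifts were not tested, beyond the fewer genes that a stricter fold or a sum leaves. No paired analysis was possible because each group has 1 library, and for the same reason no replicate could be left out. Depth did not limit these genes: the lowest count of a member was 847 reads, for Hspa1a in the co-culture. Copies, strand and the host RNA of the tumor may limit them, and none of these was tested. The correction for GC content and length moved several of their ratios, as given above.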
